A study of Mus musculus with 4 samples.

Results

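The GABA-A receptor subunit genes described here were *Gabra2*, *Gabra3*, *Gabra4*, *Gabra5*, *Gabrb1*, *Gabrb2* and *Gabrd*, which were taken by name as 7 of the 23420 gene symbols in the count tables. All 7 passed the filter on low counts, as did 16232 symbols in all. RNA-seq was performed on bulk lysate of the prefrontal cortex (PFC) of C57BL6/J mice, with 2 samples in each group. The control samples came from mice injected with GFP-AAV9, an adeno-associated virus (AAV) that carries green fluorescent protein. The Ash1L shRNA samples came from mice injected with an AAV9 that carries a short hairpin RNA against *Ash1l*, the gene of a histone methyltransferase linked to autism. The methods of the study give a U6 promoter for the hairpin, which is active in any infected cell type, injection into the medial PFC at 5 weeks of age, dissection of punches containing GFP, and tissue of 3 mice pooled into each sample. The labels instead give mice of 6 to 8 weeks, 3 with the shRNA and 2 controls, and call the control virus GFP where the methods call it scrambled shRNA. These differences could not be settled from the sources used here.

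GABA-A receptors are chloride channels built from 5 subunits around a central pore, and most contain alpha and beta subunits with a gamma or a delta subunit. Receptors with the alpha 2 or alpha 3 subunit are enriched at synapses, where they carry fast phasic inhibition. Receptors with the delta subunit, most often paired with alpha 4 in the forebrain, and many receptors with alpha 5 lie outside the synapse and respond to ambient GABA as tonic inhibition. Beta subunits occur in receptors of both locations and form part of the GABA binding site.

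The control and knockdown values of the 7 genes differed little for most subunits and most for the delta subunit. *Gabrd* had 62.6 ± 3.12 CPM (read counts scaled to library size with TMM factors) in the control samples and 35.0 ± 17.6 in the Ash1L shRNA samples (mean ± SD, n = 2 each). *Gabrb1* was the single gene of the 7 called DOWN, with 57.7 ± 7.02 CPM in controls and 43.6 ± 5.01 after the knockdown. The synaptic alpha genes *Gabra2* and *Gabra3* had higher means in the knockdown samples, and the extrasynaptic genes *Gabra4*, *Gabra5* and *Gabrd* had lower means. None of the 7 passed an adjusted p of 0.05 in edgeR's quasi-likelihood test, and 1 of them had an unadjusted P under 0.05.

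A gene was called DOWN or UP at an unadjusted P under 0.05 and a change of at least 1.2-fold. By this definition 1 of the 7 genes was DOWN, beside 8.28% of all genes tested, and 0 of 7 were UP, beside 8.61%. The log2 fold change was below 0 in 5 of the 7, beside 50.3% of all genes. Over all genes 16.9% had an unadjusted P under 0.05 and 0.00616% passed an adjusted p of 0.05. Both Ash1L shRNA samples lay below both controls in 4 of the 7 genes, beside 26.8% of all genes, and above both in 1 of the 7, beside 26.5%. Among the 4 lower genes, *Gabra4* was separated only narrowly, as given below. The median log2 fold change was −0.19 over the 7 genes and −0.0027 over all genes. The smallest adjusted p among the 7 was 0.122 by DESeq2 and 0.197 by edgeR's likelihood ratio test, so 0 of 7 passed by those tools too, while each gave 2 genes an unadjusted P under 0.05. The p-values set the difference between groups against the variation between these samples. With 2 samples a group, a two-sided permutation test cannot go below 0.333.

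The libraries held 14251190 and 35764874 counts in controls and 27479339 and 20106708 after the knockdown. *Ash1l* itself had 245 and 290 CPM in the control samples and 216 and 138 after the knockdown. Its log2 fold change of −0.60 ± 0.22 (SE) was called DOWN (adjusted p = 0.275 by edgeR). The call was lost without the first control (−0.71), the second control (−0.48) or the second Ash1L shRNA sample (−0.31), and the value was −0.97 without the first Ash1L shRNA sample. The second Ash1L shRNA sample therefore had the lower *Ash1l* level, and it stood below the other samples in most of the results that follow. Its markers differed as well. The 8 pan-neuronal markers summed to 7984 and 8191 CPM in controls and to 7236 and 6328 after the knockdown, the 8 excitatory neuron markers to 1715 and 1896 against 1573 and 1266, the 10 interneuron markers to 821 and 742 against 719 and 691, and the 8 astrocyte markers to 5374 and 5693 against 4338 and 3227. DOWN were 1 of 8, 3 of 8, 4 of 10 and 5 of 8 of them, beside 8.28% of all genes. UP were 0 of each list, beside 8.61%. The log2 fold change was below 0 in 5 of 8, 8 of 8, 7 of 10 and 5 of 8, beside 50.3% of all genes. The 6 microglial markers summed to 579 and 596 CPM in controls and to 696 and 298 after the knockdown, and the 7 oligodendrocyte markers to 2580 and 2926 against 2790 and 2454, so that the second Ash1L shRNA sample was lowest in both. The 5 endothelial markers summed to 203 to 239 CPM, and 0 genes of these 3 lists were called. Of 5 striatal markers 4 were tested, with 1 UP and 1 DOWN, and their sum was 91.9 CPM in the second Ash1L shRNA sample against 54.7 to 64.9 elsewhere. No tested marker was at 0 in all samples. In bulk tissue fewer cells of a type and less RNA per cell cannot be told apart, and the part of cell composition in the values of the receptor genes was not tested.

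**Figure D1:**
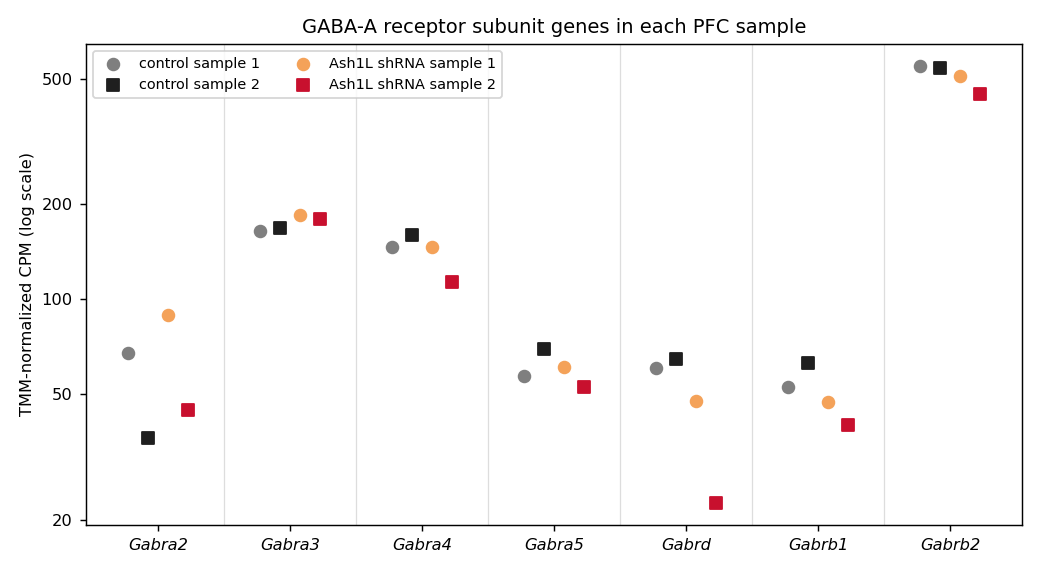
TMM-normalized CPM of each subunit gene, on a log axis, in the 2 control samples (grey and black) and the 2 Ash1L shRNA samples (orange and red), each point being 1 sample. *Gabrb2* lies highest, between 448 and 549 CPM, *Gabrd* spans from 22.6 to 64.8, and the *Gabra2* points of the groups interleave.

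Of the 7 genes, 3 lie in 1 cluster on chromosome 5, where *Gabra4* and *Gabrb1* sit head to head. In GENCODE M21 on GRCm38 (mm10), *Gabra4* (ENSMUSG00000029211) spans chr5:71569749-71658308 on the minus strand and *Gabrb1* (ENSMUSG00000029212) chr5:71658113-72149037 on the plus strand, so that their first parts overlap, with 46 bp of exon in common. The other addresses are chr5:70957597-71095849 (minus) for *Gabra2* (ENSMUSG00000000560), chrX:72432681-72656848 (minus) for *Gabra3* (ENSMUSG00000031343), chr7:57407672-57510059 (minus) for *Gabra5* (ENSMUSG00000055078), chr11:42419757-42629028 (plus) for *Gabrb2* (ENSMUSG00000007653) and chr4:155384980-155398112 (minus) for *Gabrd* (ENSMUSG00000029054). The overlap matters for counting, since reads from such a stretch can be told apart only if strand was used, and the strand setting is not given in the sources used here. *Gabra5* likewise shares 148 bp of exon with *Gm9962* on the opposite strand.

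RefSeq promoter windows of 300 bases, most of them upstream of a transcription start (GRCm38.p6), were matched for 6 of the 7 genes. The windows of the head-to-head pair are shown because both genes had lower means in the knockdown samples, and that of *Gabra3* because this gene alone was separated upward. Letters run 5′ to 3′ on the strand of the gene, and capitals mark CpG dinucleotides.
Gabrb1, chr5:71657671-71657970 (plus): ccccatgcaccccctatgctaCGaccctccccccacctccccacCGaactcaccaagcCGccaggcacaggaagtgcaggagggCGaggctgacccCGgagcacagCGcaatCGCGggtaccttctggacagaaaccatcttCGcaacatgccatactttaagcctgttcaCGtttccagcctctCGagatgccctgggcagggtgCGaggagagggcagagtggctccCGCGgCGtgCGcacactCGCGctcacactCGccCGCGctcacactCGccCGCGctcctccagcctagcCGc
Gabra4, chr5:71658259-71658558 (minus): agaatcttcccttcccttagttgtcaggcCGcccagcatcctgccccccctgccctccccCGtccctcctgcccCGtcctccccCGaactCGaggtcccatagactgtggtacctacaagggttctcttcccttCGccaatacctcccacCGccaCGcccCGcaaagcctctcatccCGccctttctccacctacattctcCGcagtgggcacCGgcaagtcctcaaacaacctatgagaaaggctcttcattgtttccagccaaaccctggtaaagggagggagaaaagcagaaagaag
Gabra3, chrX:72656758-72657057 (minus): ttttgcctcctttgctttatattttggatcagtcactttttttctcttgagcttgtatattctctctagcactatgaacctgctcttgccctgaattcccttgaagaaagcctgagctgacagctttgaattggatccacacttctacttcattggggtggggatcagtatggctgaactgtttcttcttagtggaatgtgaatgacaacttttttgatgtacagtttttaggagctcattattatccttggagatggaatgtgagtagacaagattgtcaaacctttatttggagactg
These windows hold 25 CpG for *Gabrb1*, 12 for *Gabra4* and 0 for *Gabra3*, against a median of 7 over 32851 mouse promoter windows. *Gabra2* also holds 25, *Gabra5* 13, and the 3 windows of *Gabrb2* 11, 9 and 9, while a second start of *Gabrb1* (chr5:71699682-71699981) holds 9. Letter searches on both strands found TATAAA, present in 13.6% of all windows, and CCAAT, present in 37.4%, in the *Gabra3* window. The *Gabra4* window held CCAAT and GGGCGG, the latter present in 35.7%. The printed *Gabrb1* window held none of the motifs searched, which also included CACGTG (7.15% of windows), TGACG (20.8%) and TGACGTCA (1.79%). Such matches are descriptions of letters only.

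The counts of the 7 genes were little exposed to sharing of reads between family members. No stretch of 50 bases in *Gabra4*, *Gabrb1*, *Gabrb2* or *Gabrd* transcripts occurred in another gene. The shared portion was 0.548% of 50-base stretches in *Gabra2*, 0.205% in *Gabra3* and 3.59% in *Gabra5*, the latter all with *Gm9962*. Between coding sequences, identity was 73.8% for *Gabra2* and *Gabra3*, 73.1% for *Gabrb1* and *Gabrb2*, and 57.1% for the most distant pair, *Gabra2* and *Gabrd*.

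Among the synaptic alpha subunits, *Gabra2* encodes alpha 2, which is concentrated at the axon initial segment and at synapses of forebrain principal neurons. Its level was 67.3 and 36.3 CPM in the control samples and 89.2 and 44.6 CPM in the Ash1L shRNA samples. The groups overlapped, because in each group 1 sample was well above the other, 1.86-fold in controls and 2.002-fold after the knockdown. Its log2 fold change was 0.38 ± 0.43 (SE), with a 95% interval from −0.47 to 1.23 and an adjusted p of 0.682 (edgeR). Leaving out 1 sample at a time gave values from −0.21 to 0.89, with the sign turned without the second control (−0.011) or without the first Ash1L shRNA sample (−0.21), so its direction was not determined by these samples.

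*Gabra3* encodes alpha 3, a synaptic subunit that is abundant in the deep layers of the cortex and in monoaminergic nuclei. It was measured at 164 and 168 CPM in controls and at 185 and 180 CPM after the knockdown. Both Ash1L shRNA samples lay above both controls, and the samples within each group were close to each other. The log2 fold change was 0.14 ± 0.11 and did not pass the test (95% interval from −0.071 to 0.34, adjusted p = 0.529 by edgeR). It stayed between 0.11 and 0.16 whichever sample was left out.

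Among the extrasynaptic subunits, *Gabrd* encodes delta, which gives receptors high affinity for GABA and sensitivity to neurosteroids. It had 60.4 and 64.8 CPM in the control samples and 47.5 and 22.6 CPM in the Ash1L shRNA samples. Both knockdown samples were below both controls, and they differed 2.10-fold from each other, far more than the controls did. The log2 fold change of −0.83 ± 0.34, a fold of 0.561, missed the DOWN definition narrowly in edgeR's quasi-likelihood test (adjusted p = 0.298). It met the definition in DESeq2 (adjusted p = 0.122) and in the likelihood ratio test of edgeR (adjusted p = 0.197). The size of the difference depended on the second Ash1L shRNA sample. Without it the value was −0.40, and without the first Ash1L shRNA sample it was −1.48. Both of these fits take the variation within groups from the controls alone. The smallest count behind these values was 468 reads, with a counting SD of 4.62%.

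*Gabra4* encodes alpha 4, the usual partner of delta in the forebrain. Its levels were 146.4 and 159 CPM in controls and 146.0 and 114 CPM after the knockdown. The first Ash1L shRNA sample was level with the lower control, and only the second stood clearly below. Its log2 fold change of −0.24 ± 0.15 did not pass the test (95% interval from −0.53 to 0.058, adjusted p = 0.446 by edgeR). Leaving out 1 sample gave −0.43 to −0.065, and the gene was called DOWN without the first Ash1L shRNA sample (−0.43).

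*Gabra5* encodes alpha 5, which mediates tonic inhibition in pyramidal neurons and is best known from the hippocampus. It had 57.2 and 69.3 CPM in control samples and 61.1 and 52.6 CPM in Ash1L shRNA samples. The groups overlapped, with 1 knockdown sample between the controls. The log2 fold change was −0.16 ± 0.15, with a 95% interval from −0.44 to 0.13 and an adjusted p of 0.603 (edgeR).

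Of the beta subunits, *Gabrb1* encodes beta 1, a subunit also known from astrocytes. It was counted at 52.7 and 62.6 CPM in controls and at 47.1 and 40.1 CPM after the knockdown. Both knockdown samples lay below both controls, by 0.29 and 0.53 on the log2 scale relative to the control mean. The log2 fold change of −0.41 ± 0.15, a fold of 0.755, met the DOWN definition but not the adjusted threshold (adjusted p = 0.266 by edgeR). The call was lost without the second control (−0.28) and without the second Ash1L shRNA sample (−0.29). The summed astrocyte markers were lower in both knockdown samples as well, as given above, and their part in the *Gabrb1* difference was not tested.

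*Gabrb2* encodes beta 2, the main beta subunit of cortical synaptic receptors. Its CPM was 549 and 540 in the controls and 509 and 448 in the Ash1L shRNA samples. The knockdown samples were both below the controls, which lay close together. A log2 fold change of −0.19 ± 0.12 did not pass the test (95% interval from −0.42 to 0.048, adjusted p = 0.450 by edgeR).

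**Figure D2:**
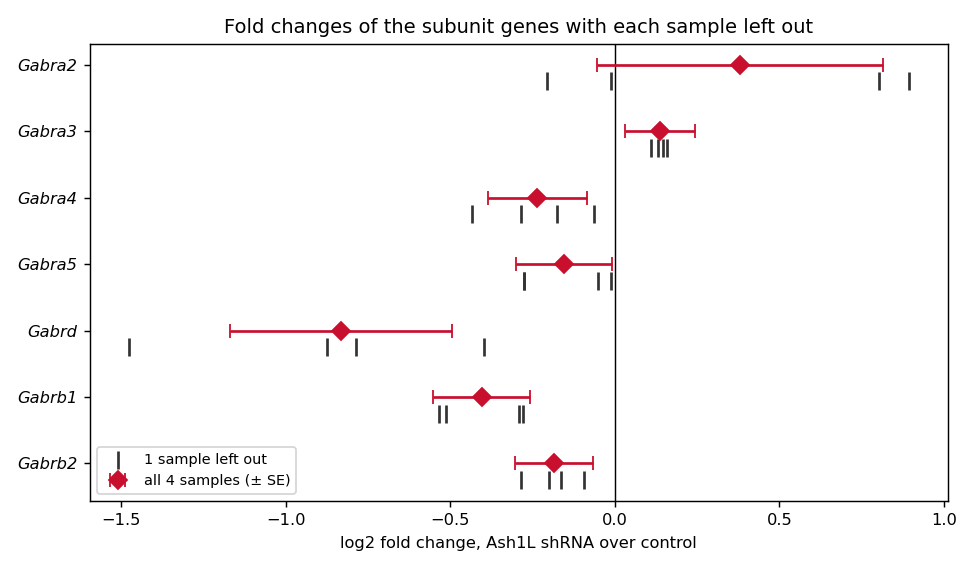
Log2 fold change of each subunit gene, Ash1L shRNA over control, from the edgeR fit of all 4 samples (red diamonds, bars ± SE), with the 4 values obtained when 1 sample was left out (black ticks). *Gabrd* moves between −1.48 and −0.40, *Gabra2* lies on both sides of 0, and *Gabra3* stays between 0.11 and 0.16.

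To compare levels between genes, CPM was divided by the length of the merged exons in kb. In the control samples *Gabrb2* was highest at 85.6 ± 0.96 CPM per kb, followed by *Gabra3* at 42.3 ± 0.64 and *Gabra4* at 25.1 ± 1.52. *Gabrd* (21.8 ± 1.09) and *Gabra5* (21.3 ± 2.88) came next and did not differ from each other beyond their spread. *Gabra2* (6.78 ± 2.87) and *Gabrb1* (4.17 ± 0.51) were lowest, and their gap was smaller than the SD of *Gabra2*. In the Ash1L shRNA samples the means per kb ran *Gabrb2* 75.3 ± 6.80, *Gabra3* 46.5 ± 0.96, *Gabra4* 21.4 ± 3.76, *Gabra5* 19.1 ± 2.02, *Gabrd* 12.2 ± 6.13, *Gabra2* 8.76 ± 4.13 and *Gabrb1* 3.15 ± 0.36. The control order of *Gabrd* and *Gabra5* depended on the length used. With the longest transcript they made up 8.29% and 8.48% of the summed control level of the 7 genes. After the knockdown, with merged exons, both *Gabrd* samples (16.5 and 7.85) lay below both *Gabra5* samples (20.5 and 17.7). In the second Ash1L shRNA sample *Gabrd* was near *Gabra2*, which stood at 5.84 CPM per kb.

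As a share of the summed level per kb of the 7 genes, *Gabrd* made up 10.2% and 10.8% in controls and 8.12% and 4.64% after the knockdown. The share of *Gabra3* was 20.4% and 20.5% in controls and 23.2% and 27.1% in the knockdown samples. *Gabrb2* held 42.1% and 40.6% against 39.4% and 41.6%, and these ranges overlapped. The summed level itself was 205 and 209 CPM per kb in controls and 203 and 169 after the knockdown, so only the second Ash1L shRNA sample was clearly below the others. The shares depend on the length used: with the longest transcript in place of merged exons, the control share of *Gabrb2* was 48.9% and that of *Gabra3* 16.3%.

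**Figure D3:**
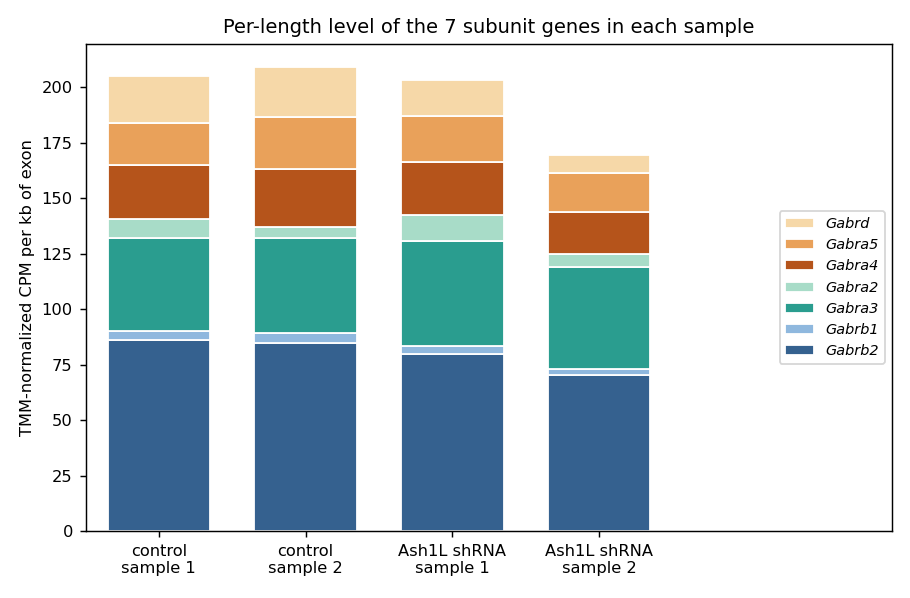
Stacked TMM-normalized CPM per kb of exon of the 7 subunit genes in each sample, with beta subunits at the bottom, synaptic alpha subunits in the middle and extrasynaptic subunits on top. The full bars reach 205 and 209 in controls and 203 and 169 in Ash1L shRNA samples, and the *Gabrd* segment is thinnest in the last.

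Synaptic and extrasynaptic subunits were then set against each other within each sample, which removes any scaling between libraries. The extrasynaptic genes *Gabra4*, *Gabra5* and *Gabrd* summed to 64.3 and 72.0 CPM per kb in controls and to 61.1 and 44.2 after the knockdown. The synaptic genes *Gabra2* and *Gabra3* summed to 50.7 and 47.5 in controls and to 58.9 and 51.7 after the knockdown. The ratio of the extrasynaptic to the synaptic sum was therefore 1.27 and 1.52 in the control samples and 1.04 and 0.856 in the Ash1L shRNA samples, without overlap. The mean log2 fold change was −0.41 over the extrasynaptic genes and 0.26 over the synaptic genes, a difference of −0.67. A single gene on each side contributed most to these means. *Gabrd* stood at −0.83, against −0.24 for *Gabra4* and −0.16 for *Gabra5*. *Gabra2*, whose direction was not determined, stood at 0.38, against 0.14 for *Gabra3*. The difference between mean log2 CPM of the extrasynaptic and the synaptic genes was −0.40 and 0.20 in controls and −0.78 and −0.80 after the knockdown, with a pooled SD between replicates of 0.30. It was not tested, as the genes are not replicates, and it ranged from −0.99 without the first control to −0.39 without the second.

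Ratios between single genes were compared in the same way. *Gabrd* over *Gabra3* was 0.501 and 0.527 in controls and 0.350 and 0.171 in the knockdown samples, and *Gabrd* over its partner *Gabra4* was 0.873 and 0.860 against 0.688 and 0.420. In both ratios the controls were close together and both knockdown samples lay lower. *Gabra5* over *Gabrd* was 0.916 and 1.03 in controls and 1.24 and 2.25 after the knockdown, so the groups also did not overlap in this ratio of an extrasynaptic gene to another. *Gabra3* over *Gabra4* was 1.74 and 1.63 against 1.97 and 2.45. *Gabrb1* over *Gabrb2* was 0.0441 and 0.0533 against 0.0425 and 0.0411, groups that were separated by less than the controls were from each other.

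**Figure D4:**
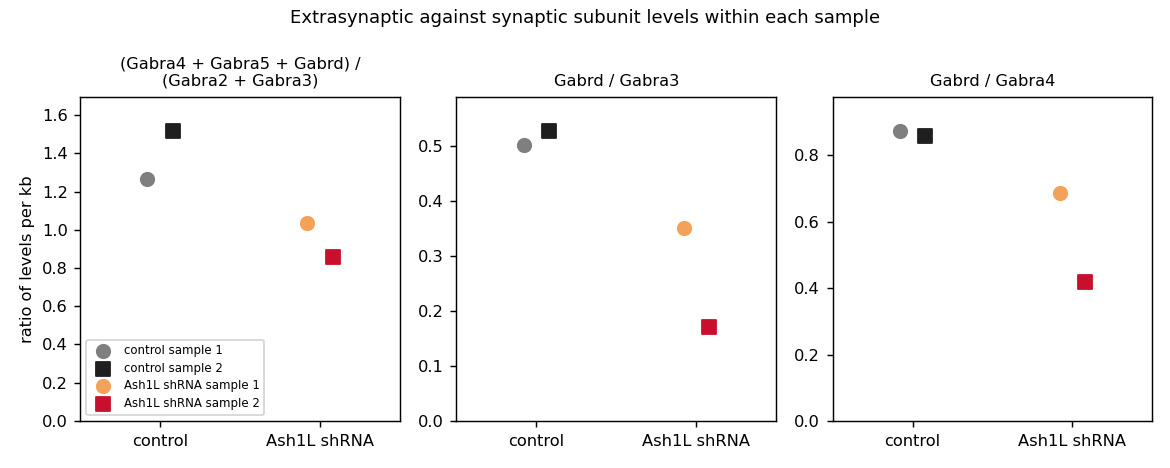
Ratios of CPM per kb within each sample, for the extrasynaptic sum over the synaptic sum (left), *Gabrd* over *Gabra3* (middle) and *Gabrd* over *Gabra4* (right), with 1 point per sample. The knockdown points lie below both control points in each panel, at 1.04 and 0.856 against 1.27 and 1.52 for the sums.

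The patterns of the 7 genes over the 4 samples were compared by the root mean square distance between log2 CPM values, each gene centred on its own mean. *Gabra4* lay nearest to *Gabrb2* (0.0853), *Gabra5* (0.0881) and its head-to-head neighbour *Gabrb1* (0.0997). *Gabra2* and *Gabrd* were farthest apart (0.724). The mean centred value of the 7 genes was 0.11 and 0.092 in controls and 0.12 and −0.32 in the knockdown samples. The first Ash1L shRNA sample was thus level with the controls in this mean, and the second was lower. In the first, opposite values offset each other. Relative to the control mean on the log2 scale, *Gabra2* stood at 0.78 and *Gabra3* at 0.16, and the other genes were below 0, down to −0.40 for *Gabrd*. Over all genes tested, the patterns nearest to this mean were those of *Acp2*, a lysosomal acid phosphatase (0.00788), *Hist1h1e*, a linker histone (0.0131), and *Myef2*, a repressor of myelin basic protein (0.0157). None of these 3 genes was called.

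Genes that act with the receptors were described as lists, whose counts stand beside the backgrounds of 8.28% DOWN and 8.61% UP. These shares hold for the fit of all 4 samples. When 1 sample was left out, the counts over all genes moved as well, as given under processing. None of the 42 tested genes in the lists passed an adjusted p of 0.05 in edgeR's quasi-likelihood test, the smallest being 0.250. Other tools passed 3 each. These were *Clcn2*, *Glra1* and *Slc12a5* in DESeq2, which passed 420 of 16686 genes over the whole table. In edgeR's likelihood ratio test, which passed 479 of 16232, they were *Clcn2*, *Gabre* and *Glra1*. *Gabre* and *Glra1* were near the floor in controls, as given below. Of the 12 other genes of the family, 7 were tested, with 0 DOWN, 1 UP and a median log2 fold change of −0.16. The DOWN count was 2 with DESeq2, 2 without the first Ash1L shRNA sample and 1 without the second. The UP gene was *Gabre*, the epsilon subunit, which is rare in cortex. It had 0 and 2 reads in controls and 15 and 24 after the knockdown, and 39 against 2 reads gave a depth-scaled ratio of 19.9 with a 95% counting interval from 5.16 to 170. *Gabre* passed the filter on low counts through the knockdown samples alone, so its UP call is no independent support, and with at least 10 counts required in every sample 0 genes of the family were UP.

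Genes of chloride transport, which sets the direction and size of the current through the receptors, were DOWN in 3 of 7 and UP in 0, with a median of −0.067. *Slc12a5*, the neuronal chloride exporter KCC2, fell from 464 and 561 CPM to 358 and 214 CPM, a log2 fold change of −0.84 ± 0.25 (edgeR, adjusted p = 0.260). *Clcn2*, a chloride channel, fell from 55.5 and 65.0 CPM to 40.2 and 31.8 CPM (−0.74). In *Slc12a5* and *Clcn2* both knockdown samples lay below both controls. Over the list this held for 3 of 7 genes, beside 26.8% of all genes, and the reverse for 0 of 7, beside 26.5%. The DOWN count was 2 without the first control and 1 without the second, where *Slc12a5* (−0.70) was no longer called. Leaving out 1 sample gave *Slc12a5* values from −1.26 to −0.51 and *Clcn2* values from −0.93 to −0.59. The importer *Slc12a2*, NKCC1, had the highest value of the list at 0.13 and was not called.

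Scaffold and adhesion genes of inhibitory synapses were DOWN in 3 of 8 tested and UP in 0, with a median of −0.16, and *Insyn1* and *Insyn2a* were not found under these symbols. *Slitrk3*, an adhesion protein of inhibitory synapses, had 60.1 and 61.8 CPM in controls against 50.8 and 36.5 CPM after the knockdown (−0.48), and *Dag1*, dystroglycan, 88.3 and 104 against 79.9 and 69.5 CPM (−0.37). Both were lower in both knockdown samples than in both controls. Over the list this held for 4 of 8 genes, beside 26.8% of all genes, and the reverse for 1 of 8, beside 26.5%. The DOWN count of this list depended on single samples. It fell without either control or without the second Ash1L shRNA sample, and it rose without the first. The count over all genes moved in the same directions. With the replicate block 1 gene of the list was DOWN, beside 1020 over all genes. *Slitrk3* ranged from −0.75 to −0.26 and *Dag1* from −0.48 to −0.25 with 1 sample left out, and each lost its call without the second control or the second Ash1L shRNA sample. *Slitrk3* also lost its call without the first control (−0.49). *Iqsec3*, a gephyrin-binding exchange factor, had the highest log2 fold change of the list at 0.44 and was not called.

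Of the trafficking and auxiliary genes, 2 of 16 were DOWN and 2 UP, with a median of 0.017. Single samples moved these counts, as they moved the counts over all genes. DOWN were *Shisa7*, an auxiliary subunit of GABA-A receptors (58.0 and 54.0 against 42.2 and 32.2 CPM, −0.59), and *Lhfpl4*, which anchors receptors with neuroligin 2 (87.8 and 96.1 against 68.5 and 60.8 CPM, −0.51). UP were *Lhfpl3*, its relative (22.0 and 18.3 against 27.8 and 27.2 CPM, 0.46), and *Arfgef2*, an exchange factor of vesicle trafficking (166 and 136 against 180 and 216 CPM, 0.39). The groups did not overlap in these 4 genes, which were named by calls made on the same values. Over the list, both knockdown samples lay below both controls in 5 of 16 genes, beside 26.8% of all genes. They lay above both in 7 of 16, beside 26.5%. Of the 4 glycine receptor genes, 0 were DOWN and 1 was UP, with a median of −0.24. The UP gene, *Glra1*, encodes the alpha 1 subunit known from spinal cord and brainstem, and it had 7 and 14 reads in controls and 57 and 172 after the knockdown, a log2 fold change of 3.55 that ranged from 2.25 to 4.24 with 1 sample left out. *Glra1* was near the floor in controls, at 0.496 and 0.399 CPM, and with at least 10 counts required in every sample 0 glycine receptor genes were UP. Like *Gabre*, it passed the filter on low counts through the knockdown samples, so its UP call and range are no independent support. *Glrb*, which encodes the beta subunit that binds gephyrin, was lowest at −0.36 and was not called.

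**Figure D5:**
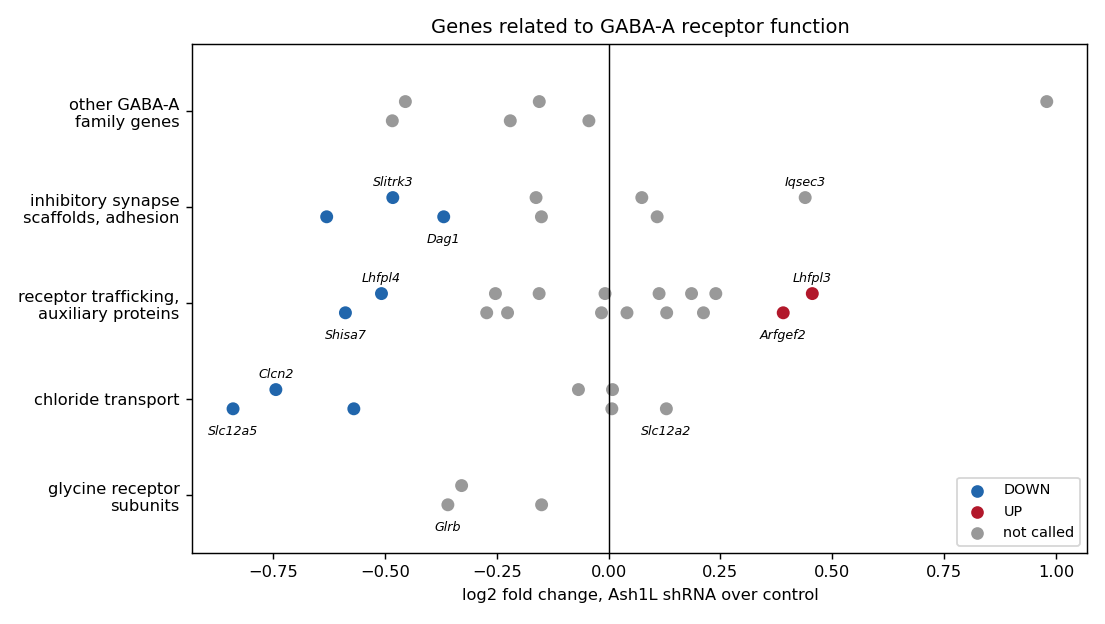
Log2 fold change, Ash1L shRNA over control, of each tested gene in the 5 lists, with DOWN genes in blue, UP genes in red and others in grey, and vertical offsets for legibility only. *Gabre* and *Glra1*, at 4.24 and 3.55, lie beyond the axis and are not drawn, and *Slc12a5* is the leftmost point at −0.84.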

How the data were processed

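Total RNA from PFC was sequenced from 2 control and 2 Ash1L shRNA samples, with stranded, ribosomal RNA depleted libraries. The deposited files hold raw counts per gene symbol, which the authors made with featureCounts after alignment to mm10 with STAR, although the labels' protocol names TopHat2 and RefSeq mRNAs. The strand setting is not given in the sources used here.

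Counts were filtered (filterByExpr), scaled by TMM and tested over all 16232 retained genes with the quasi-likelihood F test of edgeR 4.0.16 (R 4.3.3), with Benjamini-Hochberg adjustment. The definition of DOWN and UP is that of the study. The study used DESeq2, which was run as an alternative (1.42.0), as were the likelihood ratio test, other scalings and filters, other thresholds, a replicate block and leaving out each sample. The fits were tested on simulated data. Errors after ± are SD over 2 samples for levels and SE for log2 fold changes. The 95% intervals of log2 fold changes are 1.96 SE on either side. Counting intervals and counting SDs cover counting error only. Profiles used log2(CPM + 0.5). Exon lengths came from GENCODE M21.

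Samples of 1 group differed beyond counting noise (chi-square per degree of freedom 14.8 in controls, 42.3 in Ash1L shRNA), and each counted as 1 replicate. The members and lists were chosen with earlier results of these data known. Named genes were the 7 subunits, *Ash1l*, the called, highest and lowest genes of each list (at most 6), and the 3 genes nearest to the mean profile. Some genes that this rule selects are not reported here.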

Additional observations from a re-analysis of the deposited data

How the results depend on the processing

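With 2 samples a group, single samples decided several calls. Of the 7 receptor genes 1 was DOWN, against 2 with DESeq2 defaults, 2 with the likelihood ratio test, 0 at an adjusted p under 0.05, 0 at a 1.5-fold limit and 0 to 3 when 1 sample was left out (0 without the second control, 3 without the first Ash1L shRNA sample). Over all genes 1344 were DOWN and 1397 UP, against 1 and 0 at an adjusted p under 0.05, 491 and 765 at a 1.5-fold limit, and 306 to 2718 and 423 to 2368 with 1 sample left out. Both ranges over all genes ran from the fit without the second control to the fit without the first Ash1L shRNA sample. DESeq2 called 1282 of 16686 genes DOWN, and the likelihood ratio test 1268 of 16232. The replicate numbers do not pair the samples by any label, and deviations of same-numbered samples correlated at −0.134. With the replicate block, 1 of the 7 genes was UP (*Gabra2*, log2 fold change 0.35), *Gabrb1* (−0.40) lost its call and *Gabrd* (−0.93) gained one. A crossed block, chosen after seeing the data, gave 2 of the 7 DOWN, with *Gabrd* at −0.92, and 1736 DOWN and 1541 UP over all genes. *Gabrd* was also called with DESeq2 (−0.84) and the likelihood ratio test (−0.84). With 1 sample left out, log2 fold changes ranged from −0.21 to 0.89 for *Gabra2*, −0.43 to −0.065 for *Gabra4*, −0.54 to −0.28 for *Gabrb1* and −1.48 to −0.40 for *Gabrd*, and the extrasynaptic minus synaptic difference from −0.99 to −0.39. *Acp2* turned to 0.033 without the second Ash1L shRNA sample. A fit without 1 sample assumes that the remaining sample of that group varies like the other group. With the longest transcript as length, control shares were 16.3% for *Gabra3*, 13.3% for *Gabra4*, 8.48% for *Gabra5*, 1.51% for *Gabrb1*, 48.9% for *Gabrb2* and 8.29% for *Gabrd*. Other scalings and filters on low counts changed no call among the 7 genes.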

Other observations

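Of the family genes, 5 did not pass the filter on low counts. In the order of control samples 1 and 2 and Ash1L shRNA samples 1 and 2, the rho subunit gene *Gabrr1* had 1, 8, 1 and 6 reads, *Gabrr2* had 1, 10, 2 and 10, and *Gabrr3* had 5, 4, 14 and 2. *Gabra6*, the alpha subunit of cerebellar granule cells, had 0, 1, 1 and 6 reads, and *Gabrp*, the pi subunit, had 0, 0, 1 and 0. No group comparison was made for these 5 genes.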
